A study of Mus musculus with 6 samples.

Results

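The 3 Gadd45 genes of the mouse, the gene of the tumour suppressor p53 (Trp53) and 6 genes that p53 is known to induce (Mdm2, Cdkn1a, Ccng1, Btg2, Sesn1 and Sesn2) were followed in the cerebral cortex of young and old mice. These 10 genes were taken by symbol from the 55421 genes of the deposited tables. All animals were wild-type male C57BL/6J mice killed by cervical dislocation under isoflurane, and the labels name no other treatment. The young group held 3 mice aged 6 months, numbered 10, 11 and 17, and the old group 3 mice aged 24 months, numbered 2, 4 and 5, with 1 RNA-seq library of whole dissected cortex per mouse. Each library is a separate animal. The spread within an age is that between mice together with that of dissection and library preparation, which cannot be told apart here. Females were not part of this comparison. Gadd45a had been singled out for its lower level in old cortex and the other genes were added with these data known. Their differences between the ages are therefore given as values with standard errors and without a p-value.

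GADD45 proteins are small stress sensors without enzyme activity of their own. They bind the kinase MAP3K4 upstream of p38 and JNK, the replication clamp PCNA and the cyclin B1-CDK1 complex, and they take part in DNA repair and in active DNA demethylation. In neurons Gadd45b and Gadd45g are also known as activity-induced genes, while Gadd45a and the other p53 targets listed here are classical genes of the DNA damage response: p53 switches them on, and the MDM2 protein in turn marks p53 for degradation.

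The libraries held 29495379 to 36494240 counts. All 10 genes were well measured, their counts summing to 1994 or more and reaching 177 or more in every library. Levels are given as CPM, counts relative to the library size, after scaling with the TMM method of edgeR, which uses a trimmed mean of the ratios of genes between libraries. Its factors, which multiply the library sizes, were 0.921 to 0.946 at 6 months and 1.04 to 1.10 at 24 months. Fold changes are the log2 ratio of 24 over 6 months. The median log2 fold change was 0.15 over the 32905 genes tested and -0.14 over the 15761 genes with a mean of at least 1 CPM, and it moved to 0.34 and 0.048 when the libraries were scaled by their totals alone. Small differences of expressed genes are therefore also given relative to the median of the genes above 1 CPM. The markers of cortical projection neurons summed to 1122 to 1262 CPM at 6 months and 1018 to 1098 CPM at 24 months, and no marker of this list was at 0. The library of the 24-month mouse 2 stood apart from the other 5: its oligodendrocyte markers summed to 1139 CPM against 2190 to 3790 CPM in the others, its endothelial markers to 88.2 CPM against 128.4 to 166.3 CPM and its neuronal markers to 5856 CPM against 6779 to 9278 CPM. In TMM-scaled CPM, some marker sums also differed between the ages without overlap. The factors above lower the values at 24 months and raise those at 6 months. Whether the sums stay apart with library totals was not tested. Neuronal markers summed to 7938 to 9278 CPM at 6 months and 5856 to 7671 CPM at 24 months, astrocyte markers to 1748 to 1831 CPM and 1660 to 1719 CPM, and the markers of striatal neurons, which lie outside the cortex, to 145.0 to 166.7 CPM and 104.3 to 142.0 CPM. Markers of B cells and plasma cells were higher in all old mice, with 0.422 to 1.04 CPM against 1.91 to 3.93 CPM, as were those of T cells, with 1.13 to 1.95 CPM against 2.41 to 3.17 CPM. At an FDR of 10%, 3 markers of each of these lists passed, beside 18.4% of all genes tested. So did 3 of the 8 markers of cortical projection neurons and 2 of the 5 of microglia, and 0 or 1 in each other cell type list. These B and T cell sums are low. Sensory receptor genes, which cortex hardly uses, also had a higher mean in old mice, 0.195 to 0.315 TPM (per exonic length) against 0.0720 to 0.0835 TPM. The part of that rise in these sums was not tested. The part of these marker shifts in the values below was not tested. Values without mouse 2 are given where they differ much from the full ones.

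The promoters of the Gadd45 genes, Btg2 and Cdkn1a are shown first because these genes are known as targets of p53, as genes of the early response to stimulation, or as both, and their levels are set beside the immediate early genes of each mouse further on. The sequences are the bases before the annotated start (RefSeq, GRCm38.p6, strand of the gene, 5′ to 3′), without any base of an annotated exon of the gene. The windows of 300 bases, from 250 before the start, were searched on both strands for the core of the cyclic AMP response element (CRE, TGACG, 5 bases), for the CArG box bound by serum response factor, and for the p53 decamer, of which a p53 response element holds a pair. Capitals mark the CRE core in Btg2 and the p53 decamers in Cdkn1a, and lower case letters throughout mean that no match lies in the stretch shown.
Gadd45a, chr6:67037458-67037657, minus strand: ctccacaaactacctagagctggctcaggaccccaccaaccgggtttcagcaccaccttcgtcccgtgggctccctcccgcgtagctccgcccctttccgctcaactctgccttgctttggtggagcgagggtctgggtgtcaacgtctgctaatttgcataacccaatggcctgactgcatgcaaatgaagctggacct
Gadd45b, chr10:80929841-80930072, plus strand: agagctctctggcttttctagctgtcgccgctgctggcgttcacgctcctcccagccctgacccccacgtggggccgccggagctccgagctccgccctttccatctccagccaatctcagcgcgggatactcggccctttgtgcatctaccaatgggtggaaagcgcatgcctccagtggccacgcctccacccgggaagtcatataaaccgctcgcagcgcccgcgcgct
Gadd45g, chr13:51846425-51846674, plus strand: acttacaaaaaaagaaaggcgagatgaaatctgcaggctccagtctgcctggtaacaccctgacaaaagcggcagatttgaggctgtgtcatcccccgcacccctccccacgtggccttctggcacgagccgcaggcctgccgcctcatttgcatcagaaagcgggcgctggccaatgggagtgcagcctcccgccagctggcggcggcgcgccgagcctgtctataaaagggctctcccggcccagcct
Btg2, chr1:134079156-134079405, minus strand: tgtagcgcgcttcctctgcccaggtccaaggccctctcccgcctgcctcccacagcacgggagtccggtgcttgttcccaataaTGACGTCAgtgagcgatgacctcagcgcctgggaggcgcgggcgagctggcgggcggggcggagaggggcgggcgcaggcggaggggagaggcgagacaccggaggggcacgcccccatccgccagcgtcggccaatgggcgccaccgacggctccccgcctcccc
Cdkn1a, chr17:29090729-29090975, plus strand: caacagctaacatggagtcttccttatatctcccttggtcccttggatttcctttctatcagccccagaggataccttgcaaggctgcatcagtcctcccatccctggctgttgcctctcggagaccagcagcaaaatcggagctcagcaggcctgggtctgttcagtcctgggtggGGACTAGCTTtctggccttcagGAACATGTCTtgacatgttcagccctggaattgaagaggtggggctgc

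In Btg2 the capitals span positions -166 to -159 from the start and hold the CRE core on both strands, the matches overlapping. In Cdkn1a the p53 decamers lie at -73 to -64 and at -51 to -42 from the first of 2 annotated starts. The window of the second start, chr17:29093519-29093818, is not printed and held 0 matches of the CRE core, the CArG box and the p53 decamer. Over the 12 windows available for the 10 genes, the CRE core was found in 3 windows, those of Btg2, Mdm2 and Sesn1, beside 20.8% of all 32851 promoter windows. The p53 decamer was found in 6 windows, 1 each for Gadd45a, Trp53, Mdm2, Cdkn1a, Ccng1 and Sesn1, beside 8.36% of all windows. The Gadd45a match, at -40 to -31, lies in an annotated exon and is not printed. The CArG box was found in 0 of the 12 windows, beside 1.63% of all. A match is a stretch of letters and not a binding site, and the p53 element known in Gadd45a lies in an intron, outside these windows.

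Gadd45a (chr6:67035096-67037457, minus strand, ENSMUSG00000036390.8) was the member with the largest difference between the ages and the only Gadd45 gene whose groups did not overlap. Its level was 13.1, 16.9 and 12.6 CPM in the 6-month mice 10, 11 and 17 and 5.46, 6.27 and 5.85 CPM in the 24-month mice 2, 4 and 5. All 24-month mice thus lay below all 6-month mice, and they also lay close to each other, with a highest value 1.15 times the lowest. The mean was 14.2 ± 2.33 CPM at 6 months and 5.86 ± 0.409 CPM at 24 months (SD, n = 3), or 58.8% lower, and the fitted log2 fold change was -1.28 (SE 0.15). The difference was of like size when any mouse was left out (-1.36 to -1.10), when scaled by library totals (-1.09) and relative to the median of genes above 1 CPM (-1.13). In raw counts this was 405, 583 and 413 against 177, 217 and 199. The antisense transcript E230016M11Rik shares 337 exonic bases with Gadd45a, or 19.1% of its exonic length, and held 95, 95 and 99 counts at 6 months and 55, 86 and 99 counts at 24 months, of which only that of mouse 2 lay well below the rest. Reads from the shared bases cannot be told apart without strand. In whole tissue, fewer cells expressing a gene and less RNA per cell cannot be told apart either.

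Gadd45b (chr10:80930073-80932204, plus strand, ENSMUSG00000015312.9) differed between mice rather than between ages. Its level was 11.8, 12.0 and 9.13 CPM in the 6-month mice 10, 11 and 17 and 13.9, 8.38 and 7.23 CPM in the 24-month mice 2, 4 and 5. The 24-month mouse 2 had the highest level of all 6 mice, whereas the other 24-month mice had the lowest. The mean was 11.0 ± 1.61 CPM at 6 months and 9.85 ± 3.58 CPM at 24 months (SD, n = 3). The log2 fold change was -0.16 (SE 0.23), -0.48 without mouse 2 and 0.043 with library totals, so its sign depends on the scaling.

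The level of Gadd45g (chr13:51846678-51848468, plus strand, ENSMUSG00000021453.2), the most abundant of the family per length, varied most of the 3. It was 23.5, 30.6 and 17.7 CPM in the 6-month mice 10, 11 and 17 and 56.6, 21.4 and 15.8 CPM in the 24-month mice 2, 4 and 5. As for Gadd45b, mouse 2 was the highest of all 6 and mouse 5 the lowest. The mean was 23.9 ± 6.50 CPM at 6 months and 31.3 ± 22.1 CPM at 24 months (SD, n = 3). The log2 fold change was 0.39 (SE 0.40) and became -0.35 without mouse 2. The sign of the Gadd45g difference thus rested on 1 library, which was 3.04 times the mean of the other 24-month mice.

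**Figure D1:**
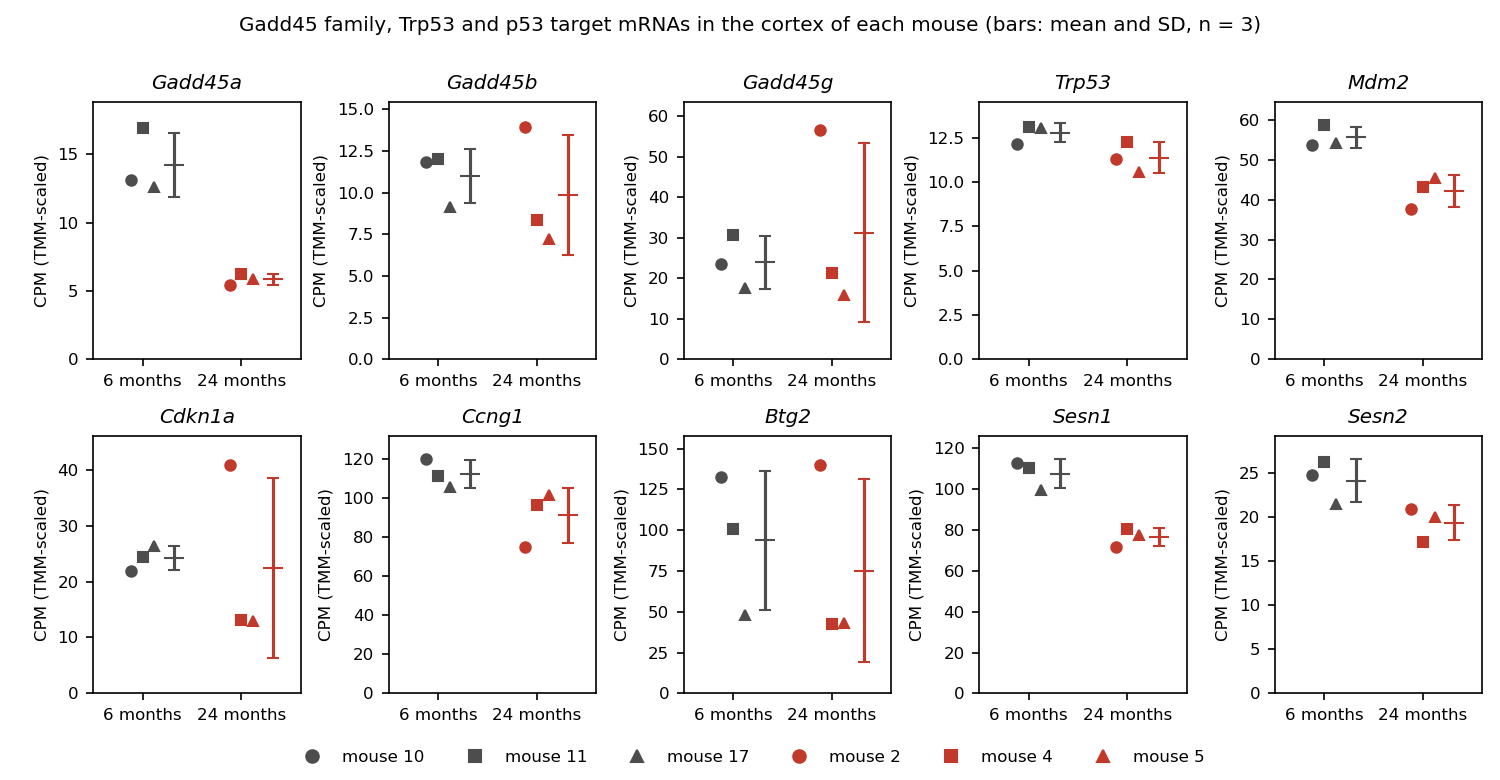
Level of each of the 10 genes (CPM, TMM-scaled, linear axis from 0) in each mouse, with the mean and SD of each age (n = 3) beside the points. Gadd45a was 12.6 to 16.9 CPM in the 6-month mice and 5.46 to 6.27 CPM in the 24-month mice, whereas the 24-month mouse 2 (circle) stands above the other 24-month mice for Gadd45b, Gadd45g, Cdkn1a and Btg2.

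Trp53 (chr11:69580359-69591873, plus strand, ENSMUSG00000059552.13), which encodes the transcription factor itself, was close in level at both ages. It measured 12.2, 13.1 and 13.1 CPM in the 6-month mice and 11.3, 12.3 and 10.6 CPM in the 24-month mice, and the ages overlapped. The mean was 12.8 ± 0.539 CPM against 11.4 ± 0.857 CPM (SD, n = 3). The log2 fold change was -0.17 (SE 0.12), 0.025 with library totals and -0.024 relative to the median of genes above 1 CPM. The abundance of its mRNA does not report on p53 protein, which is controlled mainly by its degradation.

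Mdm2 (chr10:117688875-117710758, minus strand, ENSMUSG00000020184.15), the p53-induced ubiquitin ligase that degrades p53, was lower in each 24-month mouse than in any 6-month mouse. It measured 53.8, 58.8 and 54.3 CPM at 6 months and 37.8, 43.2 and 45.5 CPM at 24 months. The mean was 55.6 ± 2.73 CPM against 42.2 ± 3.97 CPM (SD, n = 3), or 24.2% lower, and the log2 fold change was -0.40 (SE 0.10). It was -0.21 with library totals and -0.26 relative to the median of genes above 1 CPM.

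Among the other p53 targets, both sestrins and Ccng1 were lower in all old mice in TMM-scaled CPM, by less than Gadd45a. In the deposited TPM values the ages overlapped for Sesn2 and for Ccng1. Sestrins are stress-induced inhibitors of mTORC1 signalling. Sesn1 (chr10:41809935-41908424, plus strand, ENSMUSG00000038332.13) measured 112.8, 110.2 and 99.4 CPM in the 6-month mice and 71.6, 80.3 and 77.4 CPM in the 24-month mice. Its groups were well apart, with a mean of 107.5 ± 7.12 CPM against 76.4 ± 4.39 CPM (SD, n = 3), 28.9% lower, and a log2 fold change of -0.49 (SE 0.094), or -0.30 with library totals. Sesn2 (chr4:132492032-132510501, minus strand, ENSMUSG00000028893.8) measured 24.8, 26.3 and 21.5 CPM against 21.0, 17.2 and 20.0 CPM. Its groups were nearly adjacent, the lowest young mouse being just above the highest old mouse, and its log2 fold change was -0.32 (SE 0.12). Ccng1 (chr11:40748552-40755311, minus strand, ENSMUSG00000020326.7), which encodes the atypical cyclin G1, measured 119.7, 111.2 and 105.6 CPM at 6 months and 74.8, 96.5 and 101.6 CPM at 24 months. Here too the groups were nearly adjacent, and mouse 2 was the lowest: the log2 fold change was -0.30 (SE 0.12) and -0.17 without mouse 2. Relative to the median of genes above 1 CPM the differences were -0.35 for Sesn1, -0.17 for Sesn2 and -0.16 for Ccng1.

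Cdkn1a and Btg2 behaved like Gadd45g, with the 24-month mouse 2 far above the others of its age. Cdkn1a (chr17:29090976-29100727, plus strand, ENSMUSG00000023067.14) encodes p21, the inhibitor of cyclin-dependent kinases that carries out p53-dependent arrest and is widely used as a mark of senescent cells. It measured 21.9, 24.4 and 26.3 CPM in the 6-month mice and 40.9, 13.1 and 13.0 CPM in the 24-month mice. Mouse 2 was thus the highest of all 6 mice and the other old mice the lowest, and the log2 fold change of -0.12 (SE 0.38) became -0.88 without mouse 2. The sign of the full value also depends on the processing, being 0.092 with library totals. An antisense transcript that shares 273 bases with Cdkn1a held 4 to 12 counts per library.

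Btg2 (chr1:134075170-134079120, minus strand, ENSMUSG00000020423.6), an antiproliferative gene that p53 and growth factors induce within minutes, varied widely at both ages. It measured 132.7, 100.8 and 48.3 CPM in the 6-month mice 10, 11 and 17 and 140.2, 42.4 and 43.4 CPM in the 24-month mice 2, 4 and 5. The highest value was 2.75 times the lowest at 6 months and 3.31 times at 24 months, so the ages overlapped over nearly the whole range. The log2 fold change was -0.32 (SE 0.47), -1.12 without mouse 2 and 0.0021 without the 6-month mouse 10.

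Counted together in TMM-scaled CPM, 5 of the 10 genes were lower in all 24-month mice than in all 6-month mice. These were Gadd45a, Mdm2, Ccng1, Sesn1 and Sesn2, while 0 were higher in all and 5 overlapped. The same held for 16.3% of all genes tested in the lower direction and 20% in the higher direction. Of the genes above 1 CPM, to which all 10 belong, it held for 32.5% and 5.32%. In the deposited TPM values Ccng1 overlapped, with 106.0 to 119.1 TPM at 6 months and 81.1 to 110.0 TPM at 24 months. So did Sesn2, with 21.8 to 26.8 TPM and 18.8 to 23.0 TPM, while Gadd45a, Mdm2 and Sesn1 stayed apart. The share of all genes was not computed on TPM. With the quasi-likelihood test of edgeR and adjustment over all genes, 0 of the 10 genes passed an FDR of 1%, as did 0% of all genes, and 5 had an unadjusted p under 0.05, beside 30.7% of all genes. At an FDR of 10%, 3 genes passed (Gadd45a, Mdm2 and Sesn1), beside 18.4% of all genes tested and 19.7% of those above 1 CPM. The count was 0 when the 6-month mouse 10, the 6-month mouse 11 or the 24-month mouse 4 was left out. The share of all genes called in these smaller fits is not given here, so that count cannot be set beside it. At 1% the likelihood ratio test of edgeR called 2 of the genes (Gadd45a and Sesn1), beside 5.18% of all genes, and DESeq2 called 1 (Gadd45a), beside 0.836%. As the genes were chosen with this contrast known, nothing is read from these counts. The fitted sign was lower for 9 of the 10 genes with TMM scaling and for 6 with library totals, and 8 lay below the median of the genes above 1 CPM. Their median log2 fold change was -0.31, and -0.11 with library totals.

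**Figure D2:**
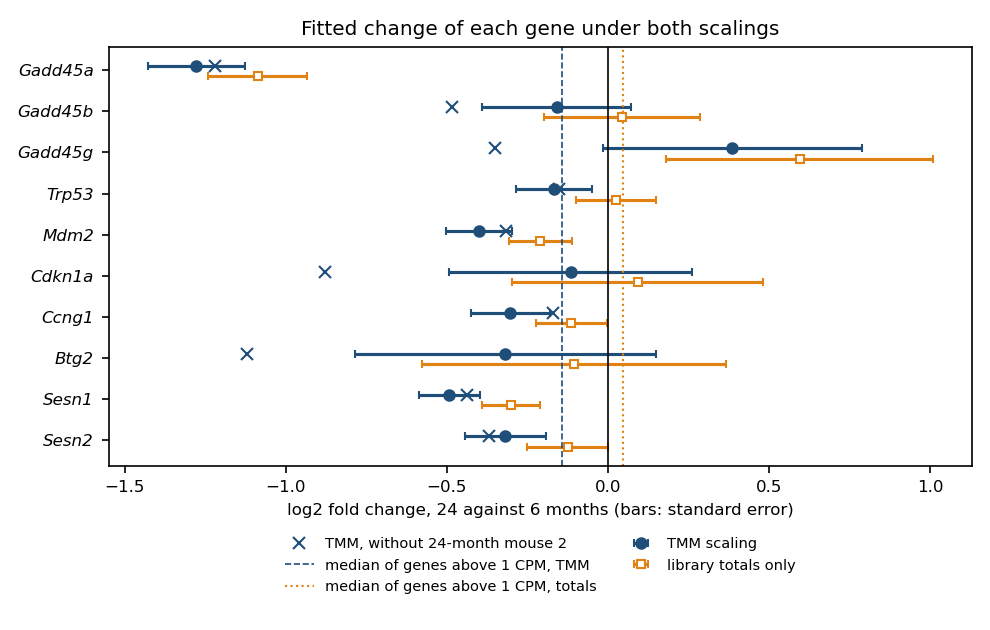
Fitted log2 fold change of each gene, 24 against 6 months, with its standard error, for TMM scaling (filled circles) and library totals (open squares), and for TMM scaling without the 24-month mouse 2 (crosses). Dashed and dotted lines mark the median of the genes above 1 CPM under each scaling (-0.14 and 0.048). Gadd45a lies at -1.28 and -1.09, far left of both lines, while the crosses of Gadd45b, Gadd45g, Cdkn1a and Btg2 lie far from their circles, at -0.48, -0.35, -0.88 and -1.12.

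The differences among mice of the same age were then set beside the immediate early genes, which neurons and other cells transcribe within minutes of stimulation. The summed level of 10 such genes (Fos, Fosb, Junb, Arc, Npas4, Egr1, Egr2, Nr4a1, Dusp1 and Ier2) was 3037, 3566 and 1749 CPM in the 6-month mice 10, 11 and 17 and 3662, 830.0 and 662.7 CPM in the 24-month mice 2, 4 and 5. Mouse 2 was the highest 24-month mouse for 10 of these 10 genes, at 2.13 to 19.3 times the mean of the other two, and mouse 17 was the lowest 6-month mouse for 10 of 10. Of the 10 genes, 0 passed an FDR of 10% between the ages and 1 had an unadjusted p under 0.05 (edgeR quasi-likelihood test), beside 18.4% and 30.7% of all genes tested.

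Over the same mice, mouse 2 was 3.27 times the mean of the other 24-month mice for Btg2, 3.13 times for Cdkn1a, 3.04 times for Gadd45g and 1.78 times for Gadd45b, but 0.900 times for Gadd45a. Gadd45b and Gadd45g ranked the 3 mice of each age in the order of the immediate early sum, at both ages. Cdkn1a did so at 24 months, though mice 4 and 5 were nearly equal (13.13 and 13.02 CPM). It did not do so at 6 months, where mouse 17 was its highest. Btg2 was highest in mouse 10 at 6 months and slightly higher in mouse 5 than in mouse 4 at 24 months. Over the 6 mice, the log2 level of Gadd45b correlated with that of the immediate early sum at r = 0.96 (two-sided exact permutation p = 0.00278, which is the lowest that 6 mice allow) and rho = 1 (exact permutation p = 0.00278). Without the 2 mice farthest from the median sum, the 24-month mice 4 and 5, r was 0.95. For Btg2, r was 0.91 (exact permutation p = 0.0167) and rho 0.89 (exact permutation p = 0.0333), and r was 0.91 without those mice. For Gadd45g, r was 0.73 (exact permutation p = 0.0444) and rho 0.94 (exact permutation p = 0.0167), and r was 0.80 without them. For Cdkn1a, r was 0.86 (exact permutation p = 0.0583) and rho 0.83 (exact permutation p = 0.0583), and r fell to 0.28 without them, so that relation rests on those mice. For Gadd45a, r was 0.52 (exact permutation p = 0.308) and rho 0.14 (exact permutation p = 0.803), and r was -0.27 without them. For Sesn2, r was 0.76 (exact permutation p = 0.0944) and rho 0.60 (exact permutation p = 0.242), and r was 0.39 without them, so its r was no lower than that of Gadd45g. For Sesn1, Trp53, Mdm2 and Ccng1, r was 0.45, 0.41, 0.25 and -0.049. Adjusted over the 10 relations computed, 1 per gene, the exact permutation p of r and rho was 0.0278 and 0.0278 for Gadd45b, 0.0833 and 0.111 for Btg2, 0.146 and 0.0833 for Gadd45g and 0.146 and 0.146 for Cdkn1a. Only the relation of Gadd45b thus stayed under 0.05, and r was not computed within an age, which has 3 mice. All relations were computed on TMM-scaled levels, and whether they hold with library totals was not tested. The permutation shuffled the mice over both ages, so a difference between the ages enters these p-values. No permutation within the ages was run, so a relation apart from age was not tested. The low oligodendrocyte and endothelial markers of mouse 2 stand beside its high values here, and their part in these relations was not tested.

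**Figure D3:**
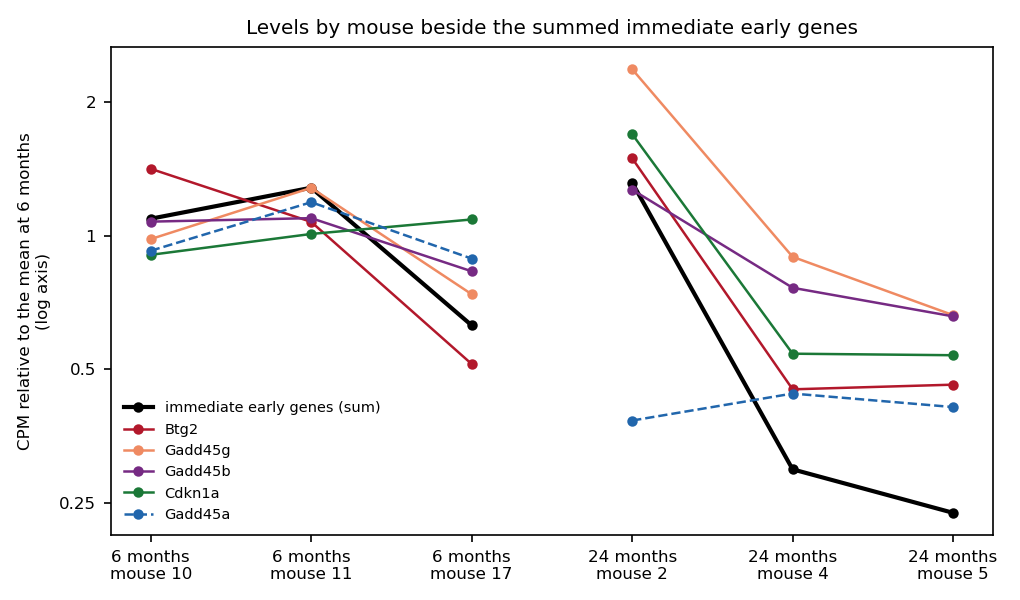
Level of 5 genes and of the summed immediate early genes in each mouse, as CPM relative to the mean at 6 months on a log axis. Lines join the mice of an age only to guide the eye, since the mice have no order. The immediate early sum was 3662 CPM in the 24-month mouse 2 and 830.0 and 662.7 CPM in mice 4 and 5, and Gadd45b, Gadd45g, Btg2 and Cdkn1a were highest in mouse 2 as well, whereas Gadd45a (dashed) was 5.46 to 6.27 CPM in all 3.

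Levels were compared between genes on the deposited TPM values, which are per exonic length. At 6 months Btg2 (120.4 ± 54.1 TPM), Ccng1 (112.4 ± 6.55 TPM) and Sesn1 (95.0 ± 6.10 TPM) were the most abundant, followed by Gadd45g (71.8 ± 19.7 TPM), Mdm2 (38.5 ± 2.10 TPM) and Gadd45a (28.4 ± 4.79 TPM). The wide range of Btg2 overlapped with that of Ccng1, and Sesn1 overlapped with Gadd45g, whereas Mdm2 lay apart from both of its neighbours. Sesn2 (24.5 ± 2.50 TPM), Gadd45b (24.3 ± 3.56 TPM) and Cdkn1a (24.0 ± 2.29 TPM) could not be ordered beyond their spread, nor could Gadd45a and Sesn2, and Trp53 was the least abundant (11.1 ± 0.536 TPM; SD, n = 3 throughout). At 24 months Gadd45a had moved from the sixth to the ninth place, with 12.6 ± 0.875 TPM, and the ranges of its neighbours Sesn2 (21.2 ± 2.18 TPM) and Trp53 (10.7 ± 0.805 TPM) did not overlap with its own. The ranges of Btg2 (104.6 ± 78.0 TPM), Gadd45g (101.6 ± 71.8 TPM) and Ccng1 (98.6 ± 15.4 TPM) overlapped from each to the next, and so did those of Mdm2 (31.6 ± 2.95 TPM), Cdkn1a (24.0 ± 17.2 TPM), Gadd45b (23.6 ± 8.60 TPM) and Sesn2. Within the family, Gadd45a and Gadd45b overlapped at 6 months, and Gadd45a lay below Gadd45b in each 24-month mouse.

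The rest of the pathway was described with 68 other genes in 4 lists, of which 67 were found and tested, the symbol Rfwd2 being an older name of Cop1, which is listed too. With the quasi-likelihood test of edgeR, 0 of the 67 passed an FDR of 1%, beside 0% of all genes, and 21 had an unadjusted p under 0.05, a share close to the 30.7% of all genes tested. At an FDR of 10%, 10 were lower at 24 months (14.9% of the lists, beside 8.33% of all genes tested and 17.3% of those above 1 CPM) and 2 were higher (2.99%, beside 10% and 2.43%). The median log2 fold change was -0.15, beside 0.15 over all genes tested and -0.14 over those above 1 CPM. With library totals 1 gene was lower and 3 were higher at 10%, and the median was 0.046. Leaving out any of the mice 10, 11 and 4 gave 0 genes lower at 10%. The count was 2 when mouse 2 was left out, 4 when mouse 17 was and 15 when mouse 5 was. The 2 higher genes were likewise 0 when mouse 10, 11, 2 or 4 was left out, 1 when mouse 17 was and 3 when mouse 5 was. The share of all genes called in these smaller fits is not given here, so these counts cannot be set beside it.

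Of the 18 genes that control p53, 2 (11.1%) fell at an FDR of 10% and 0 rose, with a median log2 fold change of -0.070. Of all genes tested 8.33% fell and 10% rose, and of those above 1 CPM 17.3% and 2.43%. Ppm1d encodes the p53-induced phosphatase WIP1, which turns the damage signal off. It measured 24.4, 26.6 and 21.0 CPM at 6 months and 14.1, 15.9 and 14.4 CPM at 24 months, well apart (log2 fold change -0.70, SE 0.12, adjusted p = 0.0518 by edgeR). It was the 1 gene of the lists called lower at 1% by the likelihood ratio test and by DESeq2. Trp53bp1, which encodes the repair factor 53BP1, fell by 0.49 on the log2 scale (SE 0.13, adjusted p = 0.0582 by edgeR), from 127.8 ± 9.68 to 90.9 ± 15.2 CPM (SD, n = 3). With library totals Trp53bp1 was at -0.30 and did not pass (adjusted p = 0.125 by edgeR). Mdm4, the relative of Mdm2 that masks the activation domain of p53, was 54.3 ± 8.54 CPM against 49.7 ± 8.68 CPM and did not pass (adjusted p = 0.599 by edgeR). The ubiquitin ligase gene Rchy1 (-0.065), the acetyltransferase gene Kat5 (-0.12) and the ribosomal protein genes Rpl5 (-0.087) and Rpl11 (-0.17) did not pass either, and the sign of these values, like that of Mdm4, was positive with library totals.

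Among 24 targets for arrest, repair and metabolism, 4 (16.7%) fell and 1 (4.17%) rose at an FDR of 10%, with a median of -0.25. Of the genes above 1 CPM, 17.3% fell and 2.43% rose. The kinase gene Plk2, a neuronal activity gene as well as a p53 target, fell from 821.0 ± 100.0 to 598.5 ± 80.8 CPM (SD, n = 3; -0.46, adjusted p = 0.0621 by edgeR). Xpc, which encodes the damage sensor of nucleotide excision repair, fell from 23.9 ± 1.37 to 16.8 ± 1.18 CPM (-0.51, adjusted p = 0.0526 by edgeR), and all old mice lay below all young mice. The antioxidant gene Gpx1 fell from 67.0 ± 3.64 to 55.0 ± 0.142 CPM (-0.29, adjusted p = 0.0776 by edgeR), or by 0.14 relative to the median of genes above 1 CPM. The fourth, the gene of the DNA polymerase kappa (Polk), was named after its values were seen. It fell by 0.44 on the log2 scale (adjusted p = 0.0898 by edgeR), though its groups overlapped. With library totals the values were -0.26 for Plk2, -0.31 for Xpc, -0.093 for Gpx1 and -0.25 for Polk, and none of these 4 passed an FDR of 10%. The gene that rose was Ptprv, a phosphatase gene with a mean of 0.301 TPM over the 6 libraries, with 11, 7 and 8 counts at 6 months and 40, 26 and 20 counts at 24 months (1.67, adjusted p = 0.0552 by edgeR). Sensory receptor genes, which cortex hardly uses, had a mean of 0.0720 to 0.0835 TPM at 6 months and 0.195 to 0.315 TPM at 24 months, whereas the lowest level of any of the 10 genes above was 9.95 TPM. The part of this higher level of silent genes in the rise of Ptprv was not tested. Zmat3 (-0.19, adjusted p = 0.302 by edgeR), Phlda3 (-0.062, adjusted p = 0.672 by edgeR) and Rprm (-0.90, SE 0.39, adjusted p = 0.155 by edgeR) did not pass, and the value of Rprm was -0.51 without the 24-month mouse 2 and -1.43 without mouse 4.

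Of 14 cell death targets, 1 (7.14%) fell and 1 (7.14%) rose at an FDR of 10%, with a median of -0.15. Of the genes above 1 CPM, 17.3% fell and 2.43% rose. Apaf1, the scaffold of the apoptosome, fell by 0.47 on the log2 scale (SE 0.14, adjusted p = 0.0697 by edgeR). With library totals Apaf1 was at -0.28 and did not pass (adjusted p = 0.222 by edgeR). The death receptor gene Tnfrsf10b rose by 0.92 (adjusted p = 0.0995 by edgeR) on 13, 13 and 15 counts at 6 months and 35, 26 and 19 counts at 24 months, at a mean of 0.413 TPM over the 6 libraries. It also passed with the likelihood ratio test and with library totals, but not with DESeq2, its size factors, filterByExpr or no filter. As for Ptprv, the part of the higher level of silent genes in this rise was not tested. The effector gene Bax was 50.2 ± 5.38 CPM against 48.1 ± 3.37 CPM (adjusted p = 0.735 by edgeR), and Ei24 (0.35), Bid (-0.16), Trp53i11 (-0.20) and Eda2r (0.45, on 10 to 26 counts per library) did not pass. Single mice weighed on these values: Ei24 was 0.033 without mouse 10 and 0.74 without mouse 17, Eda2r 0.88 without mouse 10 and 0.22 without mouse 2, and Trp53i11 -0.37 without mouse 2 and -0.033 without mouse 5.

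Of 11 partners of the GADD45 proteins, 3 (27.3%) fell and 0 rose at an FDR of 10%, with a median of -0.28. Of the genes above 1 CPM, 17.3% fell and 2.43% rose. In TMM-scaled CPM, 7 partners (63.6%) were lower in all old mice than in all young mice. This stands beside 16.3% of all genes tested and 32.5% of those above 1 CPM. In the deposited TPM values the ages overlapped for Map3k4, Mapk8, Map2k3 and Pcna of these, and stayed apart for Map2k6, Tdg and Apex1. Map2k3, Map2k6 and Apex1 were named after their values were seen. The share of all genes was not computed on TPM. The mitotic kinase gene Cdk1, named after its values were seen, was higher in all old mice, on 6, 8 and 12 counts against 17, 16 and 15 counts. Its mean was 0.278 TPM, and the part of the higher level of silent genes in its rise was not tested. The 3 that fell were Map3k4, the kinase that GADD45 proteins activate (-0.38, SE 0.13, adjusted p = 0.0898 by edgeR), Mapk8, which encodes JNK1 downstream of it (-0.47, SE 0.15, adjusted p = 0.0807 by edgeR), and Tdg, the glycosylase of active DNA demethylation (-0.33, SE 0.11, adjusted p = 0.0905 by edgeR). Mapk14, which encodes p38, was at -0.082, the JNK kinase gene Map2k7 at 0.0088 and Pcna at -0.20 (adjusted p = 0.234 by edgeR), and none of these passed. With library totals the fall was smaller, at -0.19 for Map3k4, -0.29 for Mapk8 and -0.14 for Tdg, and none of these 3 passed an FDR of 10%.

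**Figure D4:**
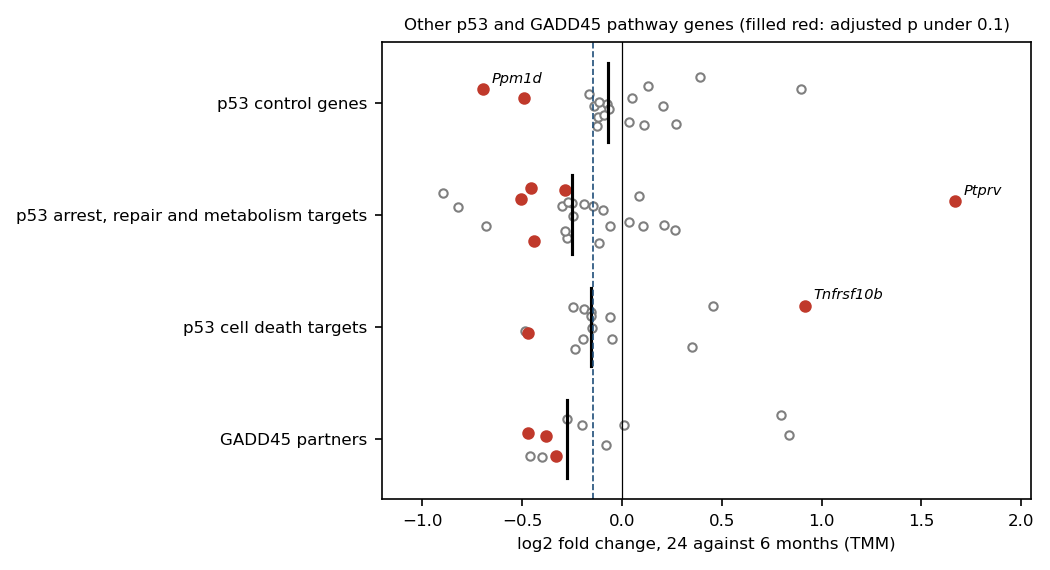
Log2 fold change (24 against 6 months, TMM scaling) of the 67 other pathway genes in 4 lists. Filled red points have an adjusted p under 0.1 (edgeR quasi-likelihood test), black bars are the median of each list and the dashed line is the median of the genes above 1 CPM. The medians were -0.070, -0.25, -0.15 and -0.28, beside -0.14 for the genes above 1 CPM, and with library totals the median over all lists was 0.046.

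The genes most like each Gadd45 gene over the 6 libraries were picked by the correlation of log2 CPM among 11753 genes with a mean of at least 5 CPM. For Gadd45a they were Ccl27a (r = 0.999), Ptpro (r = 0.999) and Slc4a1ap (r = 0.998), and 595 genes reached 0.95. Ptpro, a receptor phosphatase gene, was 19.0, 25.6 and 19.2 CPM at 6 months and 9.06, 9.97 and 9.49 CPM at 24 months. For Gadd45b they were Junb (r = 0.992), Polr3g (r = 0.990) and Ier2 (r = 0.985), and 17 genes reached 0.95. Junb and Ier2 are immediate early genes of the sum used above. For Gadd45g they were Ranbp10 (r = 0.991), Srd5a1 (r = 0.985) and Bambi (r = 0.957), and 5 genes reached 0.95. These values rest on 6 libraries that also share depth and composition, and with so few points many genes reach a high r.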

How the data were processed

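Total RNA (10 ng) of the cortex of 6 mice was made into libraries with a low-input kit and sequenced as single reads. Per the labels and methods, the authors checked reads with FastQC 0.11.8, trimmed them with Trim Galore 0.6.4, mapped them to GRCm38 with STAR 2.7.3a and counted exonic reads per gene with featureCounts of Subread 2.0.0. The deposited counts are whole numbers per gene, with totals of 29495379 to 36494240, and were used as they are, although the counting options given in the methods would share out multi-mapped reads as fractions. The deposited TPM values, which the authors derived from the counts and gene lengths, were used only to order levels between genes.

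The 32905 genes whose counts summed to 10 or more were fitted with edgeR 4.0.16 (R 4.3.3): TMM scaling, age as the only term, quasi-likelihood test, Benjamini-Hochberg adjustment over all genes. The script was tested on simulated data. FDR limits were 1%, as in the study, and 10%. The alternatives were the likelihood ratio test, DESeq2 1.42.0, its size factors, library totals, filterByExpr, no filter, and each mouse left out. Correlations used log2 CPM (prior count 2) and exact permutation of all mice over both ages (scipy 1.17.1).

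The 10 genes and all lists were chosen with earlier results of these data known. From each pathway list the text names genes past 1% FDR, the 4 of highest mean TPM, up to 3 past 10% FDR of smallest p, and Mdm4, Bax, Zmat3, Phlda3 and Eda2r. The 3 genes most like each Gadd45 gene are named as well. Positions are from GENCODE vM21, in which all 10 genes were found, and promoter windows from RefSeq (GRCm38.p6).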

Additional observations from a re-analysis of the deposited data

How the results depend on the processing

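No paired analysis was possible because the mice of the 2 ages carry different numbers and share none. Of the 10 genes, 0 passed an FDR of 1% in the quasi-likelihood test, 2 with the likelihood ratio test, 1 with DESeq2 and 1 without a filter, and 0 with any mouse left out. At 10% the count was 3, and 0 to 4 with a mouse left out. Of the other pathway genes, 1 was higher and 1 lower at 1% with the likelihood ratio test and 1 lower with DESeq2, against 0. At 10%, 2 were higher in the main analysis, and 1 with DESeq2, 1 with its size factors, 1 with filterByExpr, 1 without a filter and 0 to 3 with a mouse left out. There, 10 were lower in the main analysis, and 1 with library totals, 2 with filterByExpr, 5 without a filter and 0 to 15 with a mouse left out. The cause was not tested, and the share of all genes called with a mouse left out is not given here.

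Signs of small log2 fold changes turned with the scaling. With library totals they were 0.063 for Mdm4, 0.13 for Rchy1, 0.078 for Kat5, 0.10 for Rpl5, 0.027 for Rpl11, 0.0023 for Zmat3, 0.13 for Phlda3, 0.14 for Bax, 0.038 for Bid, 0.0025 for Trp53i11 and 0.11 for Mapk14. With filterByExpr they were 0.049 for Rchy1, 0.025 for Rpl5, 0.053 for Phlda3, 0.055 for Bax and 0.032 for Mapk14. Leaving out 1 mouse gave -0.26 to 0.00037 for Mdm4, -0.11 to 0.014 for Bax, -0.34 to 0.16 for Mapk14 and -0.046 to 0.13 for Map2k7, whose main value was 0.0088.

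The same turned the sign of 5 of the 10 genes. Gadd45b was 0.043 with library totals and 0.026 without the 24-month mouse 5, Gadd45g -0.35 without mouse 2, Trp53 0.025 with library totals, and Btg2 0.0021 without the 6-month mouse 10. Cdkn1a was 0.092 with library totals, 0.012 with filterByExpr and 0.16 without the 24-month mouse 4 or 5. Gadd45a, Mdm2, Ccng1, Sesn1 and Sesn2 were lower in all these settings. Each of the 10 genes had at least 177 counts in every library.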

Other observations

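Some genes of the pathway lists were low in the 6-month mouse 10 alone, which was seen after their values were read. Btg1, a relative of Btg2, measured 19.5 CPM in mouse 10 and 39.7 to 57.9 CPM in the other 5 mice, or 0.394 of their mean. Ei24 measured 47.3 CPM in mouse 10 and 96.4 to 138.0 CPM in the others, or 0.398 of their mean. Mapk14 measured 53.4 CPM against 79.5 to 110.4 CPM, or 0.577 of their mean, and the cyclin gene Ccng2 measured 50.5 CPM against 62.3 to 96.6 CPM, or 0.656 of their mean. Over the same libraries Btg2 was highest in mouse 10 among the 6-month mice, at 132.7 CPM.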
